A study of Mus musculus with 8 samples.

Results

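A cassette exon is an exon that some transcripts of a gene include and others skip. When its length is not a multiple of 3, the included and the skipped form are read in different frames after it, and it is called frame-shifting here. Of the 544 distinct cassette exons in the authors' 3 splicing comparisons of cultured mouse hippocampal neurons, 216 (39.7%) were frame-shifting, in 204 genes by symbol, and the other 328 preserved the frame. Exons entered the deposited tables because the authors called their inclusion as changed, so the members were chosen by their inclusion values, which are described without a test. The level of the host gene was not used in the choice, and it is the measure that is tested.

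Joining exons across a frame shift often brings a stop codon into the new frame. A stop codon that lies well upstream of the last exon junction is the usual signal for nonsense-mediated decay (NMD), the pathway that degrades such transcripts, and exons that bring one in are known to lower the level of several splicing regulators and synaptic genes. Other frame-shifting exons lie near the end of the coding region and give the protein another C-terminus. A further kind is a pair of mutually exclusive exons, of which a transcript uses either, so that the frame is kept although each exon alone would shift it. Rbfox proteins bind GCATG in introns around alternative exons, and their position decides whether they promote inclusion or skipping.

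RNA-seq was made from 8 samples of hippocampal neurons at 14 days in vitro (DIV), 2 in each of 4 groups. An AAV2/9 vector, whose SynI promoter directs expression to neurons, was added at 9 DIV for 12 hours (1500 genomic copies per cell). Accell siRNA, with no such restriction, followed from 10 DIV for 4 days. The control group carried the EGFP vector and non-targeting siRNA. The knockdown group carried the EGFP vector and siRNA against Rbfox1 and Rbfox3. The cytoplasmic rescue and the nuclear rescue carried the same siRNA as the knockdown, with the Flag-Rbfox1_C_siMt or the Flag-Rbfox1_N_siMt vector in place of EGFP, the cytoplasmic and the nuclear isoform of Rbfox1. Separate cultures for the samples of a group are not stated in the labels. The tables hold 1 value per group, so the spread between samples is unknown and no inclusion value below carries a replicate error. Both rescues were set against the same knockdown samples, which are also the treated group of the knockdown comparison.

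The targeted genes matched the labels. Rbfox1 measured 25.7 FPKM (fragments per kilobase, scaled to library size) in control, 1.94 in knockdown, 16.1 in the cytoplasmic and 38.2 in the nuclear rescue, where the vectors supply it. Rbfox3 measured 12.4, 1.59, 1.59 and 1.53 FPKM in the same order. Neuronal markers were high (Tubb3 291 FPKM in control), and so was the astrocyte marker Gfap (569 FPKM), so the cultures held glia. In the knockdown 2.35% of all genes were called at the authors' q below 0.05. There 3 of 5 oligodendrocyte markers were called higher, the sum of the 5 going from 37.7 to 60.9 FPKM. There 3 of 5 microglial markers were called lower, the sum going from 7.68 to 4.14 FPKM, and of 6 measured neuronal markers Gad2 alone was called, lower. Only 1 of these 6 had a log2 fold change above 0 in the knockdown, and 3 had an unadjusted Cufflinks p under 0.05. Their median log2 fold change there was -0.21, beside 0.02 for all genes. The sum of the neuronal markers lay between 997 and 1069 FPKM over the groups and that of 5 astrocyte markers between 913 and 1047, and no measured marker was at 0. In the rescues the vascular marker Kdr alone was called, lower in the cytoplasmic one, where 0.506% of all genes were called. Its level was low, 0.489 FPKM in knockdown and 0.271 in that rescue. In these bulk samples fewer cells of a type and less RNA per cell cannot be told apart, and the part of other cell types in the results below was not tested.

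The exons the results turn on are shown first, 5′ to 3′ on the strand of the gene. Their sequences come from GENCODE M21 transcripts of GRCm38, matched by exon and intron lengths, and their coordinates are those of the authors' files in mm9. Of the 216 exons 200 were matched. The first set brings in a stop codon when included, and capitals mark that codon. In Stx3 it starts at base 45 of the exon and is completed by the next exon, as TGA. In Mtfr1 it is the exon's first codon.
Stx3, chr19:11864538-11864583, minus strand, 46 nt: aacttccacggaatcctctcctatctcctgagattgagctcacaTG
Mtfr1, chr3:19108491-19108527, plus strand, 37 nt: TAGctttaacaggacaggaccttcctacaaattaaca
D16H22S680E, chr16:18319837-18319880, minus strand, 44 nt: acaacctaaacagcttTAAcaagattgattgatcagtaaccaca
Trank1, chr9:111287623-111287708, plus strand, 86 nt: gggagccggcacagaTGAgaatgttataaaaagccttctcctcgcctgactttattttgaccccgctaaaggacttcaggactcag
Snapc4, chr2:26233681-26233799, minus strand, 119 nt: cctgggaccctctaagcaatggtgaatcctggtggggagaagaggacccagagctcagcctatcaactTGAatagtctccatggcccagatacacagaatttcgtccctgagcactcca

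The second set changes the end of the protein when skipped with no other exon in its place, and brings in no early stop. The exon listed under mKIAA0787 is an exon of Camkk2 in GENCODE.
mKIAA0787, chr5:123186997-123187039, minus strand, 43 nt: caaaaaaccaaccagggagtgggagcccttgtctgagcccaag
Camta1, chr4:150445535-150445565, minus strand, 31 nt: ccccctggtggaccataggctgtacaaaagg
Rbfox2, chr15:76924881-76924920, minus strand, 40 nt: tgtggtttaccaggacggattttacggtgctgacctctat

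The third set holds exons that another exon of equal length can replace, with the bases that differ within each pair in capitals. Both Gria2 exons are listed members, and the partner of the Snap25 exon was found in GENCODE only. The members of the Gria2 pair were identical at 79 of 115 bases (68.7%) and those of the Snap25 pair at 87 of 118 (73.7%).
Gria2, chr3:80495242-80495356, minus strand: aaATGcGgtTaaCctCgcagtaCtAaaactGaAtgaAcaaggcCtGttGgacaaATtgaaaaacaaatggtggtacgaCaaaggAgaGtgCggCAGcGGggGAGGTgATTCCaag
Gria2, chr3:80494326-80494440, minus strand: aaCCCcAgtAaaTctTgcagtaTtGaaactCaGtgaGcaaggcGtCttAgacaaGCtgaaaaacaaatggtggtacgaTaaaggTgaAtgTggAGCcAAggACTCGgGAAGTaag
Snap25, chr2:136595793-136595910, plus strand: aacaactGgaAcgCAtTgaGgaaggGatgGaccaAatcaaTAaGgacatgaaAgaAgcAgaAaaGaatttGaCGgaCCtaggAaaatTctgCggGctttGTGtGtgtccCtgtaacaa
Snap25 partner: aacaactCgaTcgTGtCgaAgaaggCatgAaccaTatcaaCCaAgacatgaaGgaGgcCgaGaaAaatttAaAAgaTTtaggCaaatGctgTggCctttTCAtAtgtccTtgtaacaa

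The 216 exons measured from 13 to 1249 nt, with a median of 100 nt against 63 nt for the frame-preserving exons. Microexons of up to 30 nt made up 9 of them (4.17%) against 57 of 328 (17.4%). Division of the length by 3 left 1 in 120 exons and 2 in 96. The shortest was a 13-nt exon of Dclk2, a doublecortin-like kinase, at an inclusion fraction of 0.158 in knockdown and 0.325 in the nuclear rescue. A 20-nt exon listed under Zbtb9 and placed in Bak1 by GENCODE had 0.305 in control, 0.407 in knockdown and 0.306 in the cytoplasmic rescue. A 23-nt exon of Pfkfb3, an enzyme that controls glycolysis, had 0.275 in knockdown and 0.392 in the cytoplasmic rescue. The longest, in the histone demethylase gene Kdm3b, had 0.911 in knockdown and 0.807 in the nuclear rescue. Some members share sequence: in Gapdhs, Sgce, Atp2b4 and Cis4 exons of different length share an end, and 12 genes held more than 1 member. Of the 216, 173 were listed in 1 table, 34 in 2 and 9 in all 3.

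The reading frame was predicted by including and by skipping each exon in a complete GENCODE coding transcript. A stop codon more than 50 nt upstream of the last exon junction was called early. In 126 exons both forms could be read, and in 79 of these (62.7%) a form had an early stop. Of the frame-preserving exons 7 of 273 (2.56%) had one. This contrast largely follows from the grouping, since skipping a multiple of 3 nt leaves the later frame unchanged. Skipping gave the early stop in 61 exons and inclusion in 18, of which 11 carried the stop inside the exon. In 47 exons neither form had an early stop, 25 lay in the 5′ UTR, 8 held the start codon, and 3 had a form without a stop codon. No complete coding transcript was found for 38, of which 16 were in transcripts annotated as NMD targets and 5 in lincRNAs, and 16 exons were not matched.

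**Figure D1:**
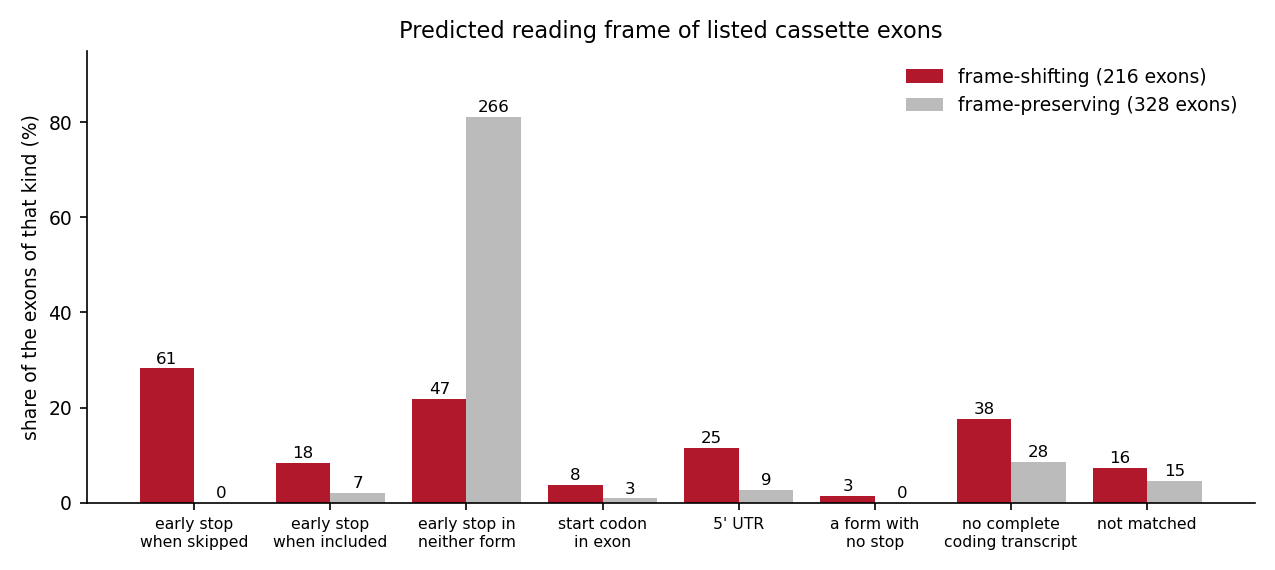
Predicted reading frame of the 216 frame-shifting (red) and 328 frame-preserving (grey) exons, as the share of the exons of each kind in percent (vertical axis), with the number of exons above each bar. An early stop was predicted on skipping for 61 frame-shifting exons and for none of the frame-preserving ones, a contrast that largely follows from the grouping.

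The usual form differed between these classes. Exons whose skipping gave an early stop were mostly included: their median inclusion in the knockdown, the group all tables share, was 0.871, and 57 of 61 were above 0.5. Exons whose inclusion gave an early stop had a median of 0.381, and 6 of 18 were above 0.5. In the class with no early stop in either form the median was 0.653. The form without the early stop was thus the more abundant in most exons of both classes. The prediction starts from an annotated coding transcript, which favours an annotated form without an early stop. This division can therefore follow in part from the annotation, and how far was not tested. GCATG was present in the sequence of 25 of 200 frame-shifting exons (12.5%), read on the transcript strand, and of 31 of 313 frame-preserving exons (9.9%). The 100-nt exon of Stx3 holds it at base 39, shown in capitals below, and the motif in introns was not analysed here.
Stx3, chr19:11866236-11866335, minus strand, 100 nt: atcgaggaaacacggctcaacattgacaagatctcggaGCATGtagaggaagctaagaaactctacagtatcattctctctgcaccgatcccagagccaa

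In the knockdown 91 frame-shifting exons were listed, 46 more and 45 less included than in control. Of 123 frame-preserving exons there, 47 were more and 76 less included. In the cytoplasmic rescue the 68 frame-shifting exons divided into 36 more and 32 less included than in the knockdown, and the 82 frame-preserving ones into 53 and 29. In the nuclear rescue 43 of 109 frame-shifting exons were more and 66 less included, against 103 and 106 of 209. No test of these divisions was made, since the authors' calls fix the list. The absolute changes lay close to the smallest listed: the median was 0.124, 0.119 and 0.123 in the 3 comparisons, and the smallest was 0.1 in each.

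The changes of the deposited fraction were compared with the reads that cross exon junctions. The share of junction reads that include the exon (the mean of both inclusion junctions against the skipping junction) moved in the deposited direction in 86 of 91 exons in the knockdown, 64 of 68 in the cytoplasmic and 106 of 109 in the nuclear rescue. It moved in that direction by 0.1 or more in 43, 28 and 55. For the frame-preserving exons the last count was 80 of 123, 53 of 82 and 156 of 209. Junction reads per frame-shifting exon and group ran from 32 to 11489.

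Among the members, the 46-nt exon of Stx3 had the largest change in the knockdown. Stx3 encodes syntaxin 3, a membrane fusion protein of the SNARE family. Inclusion was 0.563 in control, 0.102 in knockdown, 0.302 in the cytoplasmic and 0.478 in the nuclear rescue. The knockdown was the lowest of the groups and neither rescue reached the control. In control 63 and 57 reads crossed the inclusion junctions and 56 the skipping junction, an inclusion share of 0.517 (95% exact binomial interval 0.423 to 0.611, counting error only). In knockdown these were 28, 42 and 333 reads, a share of 0.0951 (0.0671 to 0.13). The exon was listed because of its inclusion change, so these intervals describe the read counts and do not test that change. Included, the exon ended the reading frame after 86 codons in place of 289, and the stop lay 685 nt upstream of the last junction.

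Stx3 was also the host gene with the largest rise. Its level was 7.49 FPKM in control, 15.8 in knockdown, 9.78 in the cytoplasmic and 9.16 in the nuclear rescue, so it was highest where the exon was least included. The authors' deposited table gave a log2 fold change of 1.08 in the knockdown (implied standard error 0.151, Cufflinks q = 1.72e-09). It gave -0.69 in the cytoplasmic rescue (0.16, Cufflinks q = 0.00309) and -0.78 in the nuclear rescue (0.158, Cufflinks q = 2.47e-04). A second Stx3 exon, of 100 nt, moved the other way: inclusion was 0.809 in control and 0.942 in knockdown. In the nuclear rescue table, where its downstream neighbour is the 46-nt exon, it was 0.996 in knockdown and 0.782 in the rescue. Skipping it in a transcript without the 46-nt exon gave an early stop after 61 codons.

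**Figure D2:**
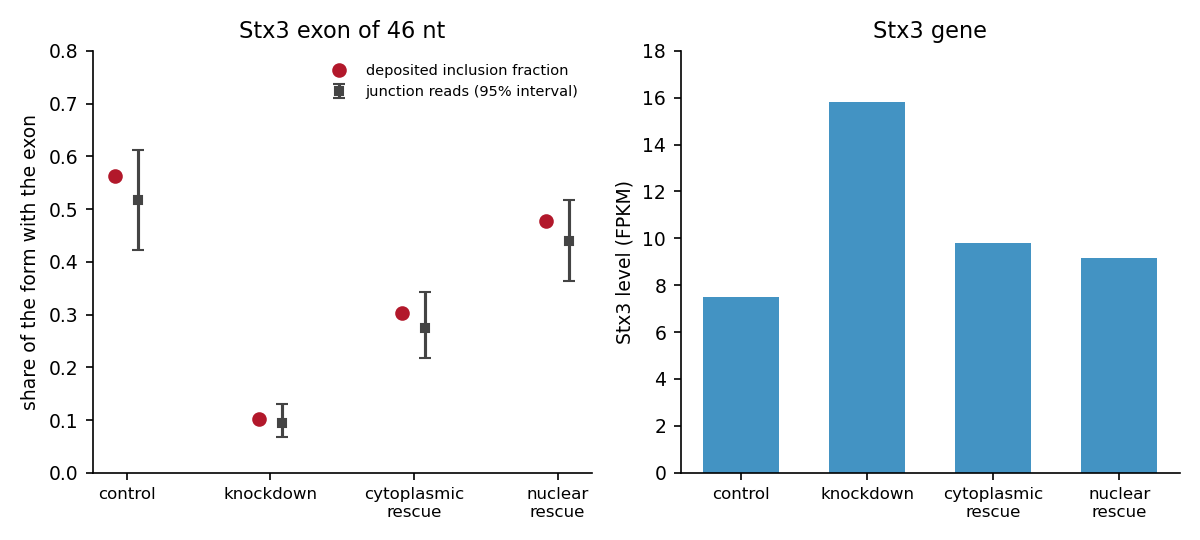
Left, the share of Stx3 transcripts with the 46-nt exon in each group, as the deposited inclusion fraction (red points) and from junction reads with 95% exact binomial intervals (grey squares). Right, the Stx3 level in FPKM, 1 value per group without a replicate error. The knockdown had the lowest inclusion (0.102) and the highest level (15.8 FPKM).

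Few host genes were called. Of the 73 host genes with an FPKM value in the knockdown, 2 were called at the authors' q below 0.05 (2.74%), against 2.35% of all 15598 genes. These were Stx3, higher, and Phip, lower. Phip, a signalling adaptor of the insulin receptor pathway, went from 12.5 to 8.06 FPKM (log2 fold change -0.63, implied standard error 0.13, Cufflinks q = 3.68e-04). Its 101-nt exon had an inclusion of 0.858 in control and 0.96 in knockdown. In the cytoplasmic rescue 1 of 57 host genes was called, Stx3, against 0.506% of all genes. In the nuclear rescue 2 of 93 were called, Stx3 and Rbfox2, against 0.11% of 15489 genes. Of the hosts of frame-preserving exons 3 of 112, 0 of 74 and 0 of 182 were called in the same order. An unadjusted Cufflinks p under 0.05 was found for 6 (8.22%), 4 (7.02%) and 4 (4.3%) hosts of frame-shifting exons and for 18 (16.1%), 4 (5.41%) and 3 (1.65%) hosts of frame-preserving ones. Over all genes the shares were 10.9%, 5.33% and 1.05%. A log2 change of less than 0.5 was found for 71 of 73, 55 of 57 and 91 of 93 hosts of frame-shifting exons.

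Host levels and inclusion changes were nearly unrelated in rank. Across exons Spearman's rho between the change in inclusion and the host log2 fold change was 0.02 in the knockdown (75 exons), 0.10 in the cytoplasmic (59) and 0.07 in the nuclear rescue (97). The cytoplasmic value was 0.16 without Stx3 and 0.17 with hosts matched by mm9 position. These are descriptions across exons that share libraries and, in part, host genes. In the knockdown the median host log2 fold change was 0.024 for more included and 0.046 for less included exons, and 0.023 for all genes. The corresponding values were -0.075, -0.079 and -0.060 in the cytoplasmic and -0.015, -0.039 and -0.016 in the nuclear rescue.

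**Figure D3:**
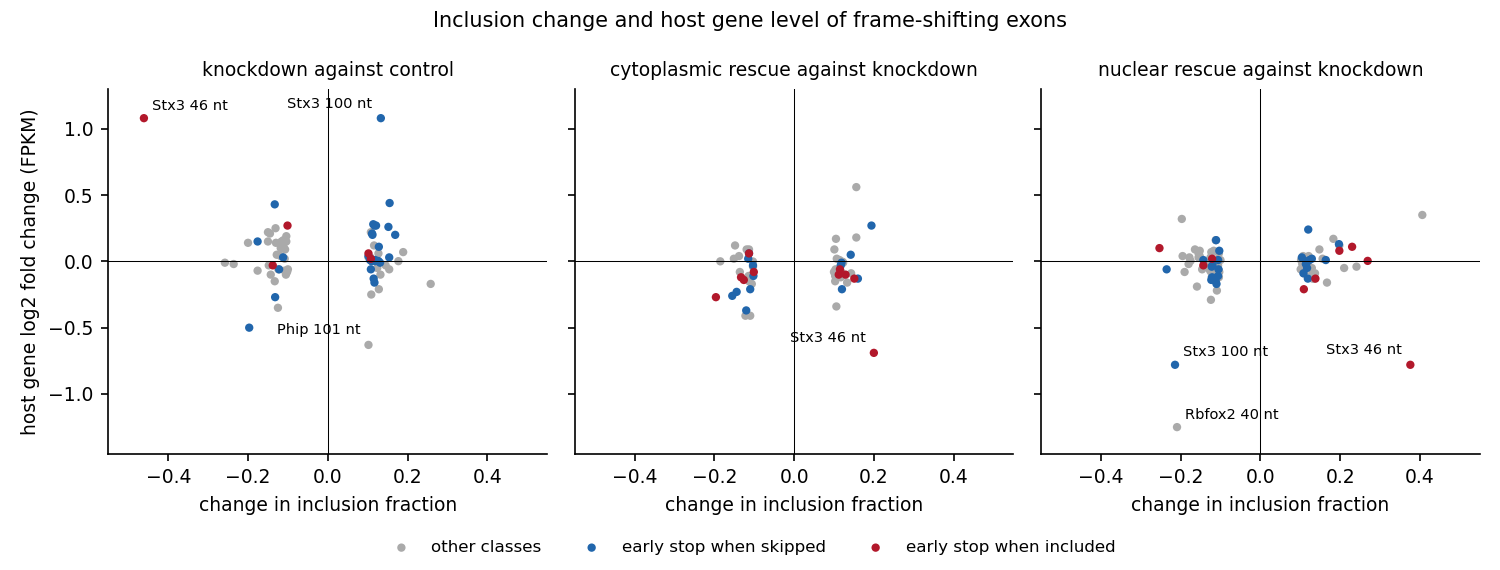
Change in the deposited inclusion fraction (horizontal axis) and the host gene's deposited log2 fold change of FPKM (vertical axis) for each frame-shifting exon in the 3 comparisons. Colour gives the predicted frame, and hosts past the authors' q below 0.05 are named. Most points other than Stx3, Rbfox2 and Phip lie within 0.5 of 0 on the vertical axis.

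For the exons with a predicted early stop, the share of the form without it was set beside the host level. For the 46-nt Stx3 exon that share was 0.437 in control and 0.898 in knockdown, a log2 ratio of 1.04 beside the host's 1.08. In the nuclear rescue it went from 0.898 to 0.522, a log2 ratio of -0.78 beside the host's -0.78. In the cytoplasmic rescue it went to 0.698, a log2 ratio of -0.36 beside the host's -0.69. The host level thus moved with the share in each comparison, by nearly the same amount in the knockdown and the nuclear rescue and by more in the cytoplasmic rescue. Equal changes serve here only as a reference, since no expected relation between a share and a host level was derived. Decay of either form was not measured.

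Other hosts with ratios of this size had small changes in level. In Itsn1, which encodes the endocytic scaffold intersectin, a 46-nt exon gave a log2 ratio of 1.04 in the cytoplasmic rescue, and the host had -0.14 (Cufflinks q = 1.0). Its junction share moved by -0.0391, with 4 and 7 skipping reads in the groups compared. In Slx1b, a nuclease subunit gene, a 52-nt exon gave 0.85 in the knockdown, with a host value of 0.03. For the 275-nt exon of Arhgap21, a regulator of small GTPases, inclusion was 0.603 in knockdown and 0.35 in the nuclear rescue, a log2 ratio of 0.71 with a host value of 0.10. The 151-nt exon of the growth factor receptor gene Fgfr1 gave 2.45 there, from shares of only 0.029 and 0.158, with a host value of 0.02. On this prediction most Fgfr1 transcripts would carry an early stop, at 14.8 FPKM in knockdown and 15.0 in the nuclear rescue. Whether its skipped form carries one was not tested, and the exon enters every nuclear rho below. These early stops were predicted for plain inclusion or skipping. Transcripts that use another exon in a member's place were not read, and for them the share may not be one without an early stop.

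Of the exons with an absolute log2 ratio of 0.3 or more and a host FPKM, the host changed in the same direction in 7 of 10 in the knockdown, 4 of 7 in the cytoplasmic and 8 of 13 in the nuclear rescue. Its value lay within 0.3 of the ratio in 4, 2 and 4 of them. Both in the cytoplasmic rescue, the exons of Snapc4 and Snap25, had log2 ratios of only 0.07 and 0.00 in junction reads. The Snap25 exon, which an exon of equal length can replace, was also among those in the knockdown and the nuclear rescue, again with ratios of 0.00 in junction reads. Of these hosts only Stx3 was called. In the nuclear rescue its 46-nt and 100-nt exons both counted, so the 13 exons lay in 12 genes. The 100-nt exon was read there next to the 46-nt exon, whose inclusion gave an early stop. Its share there (log2 ratio -0.35 beside the host's -0.78) is thus not one without an early stop. It is nevertheless among the 8 counted in the same direction, and it enters the nuclear rho below unless Stx3 is left out. Spearman's rho over all exons with an early stop in a form was 0.25 (32 exons), 0.12 (24) and 0.34 (34), and without Stx3 0.15, 0.03 and 0.25. It was 0.38, 0.10 and 0.35 with junction reads in place of the deposited fraction. Without the exons of Gria2, Snap25 and Scn2a1 it was 0.23, 0.15 and 0.48.

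**Figure D4:**
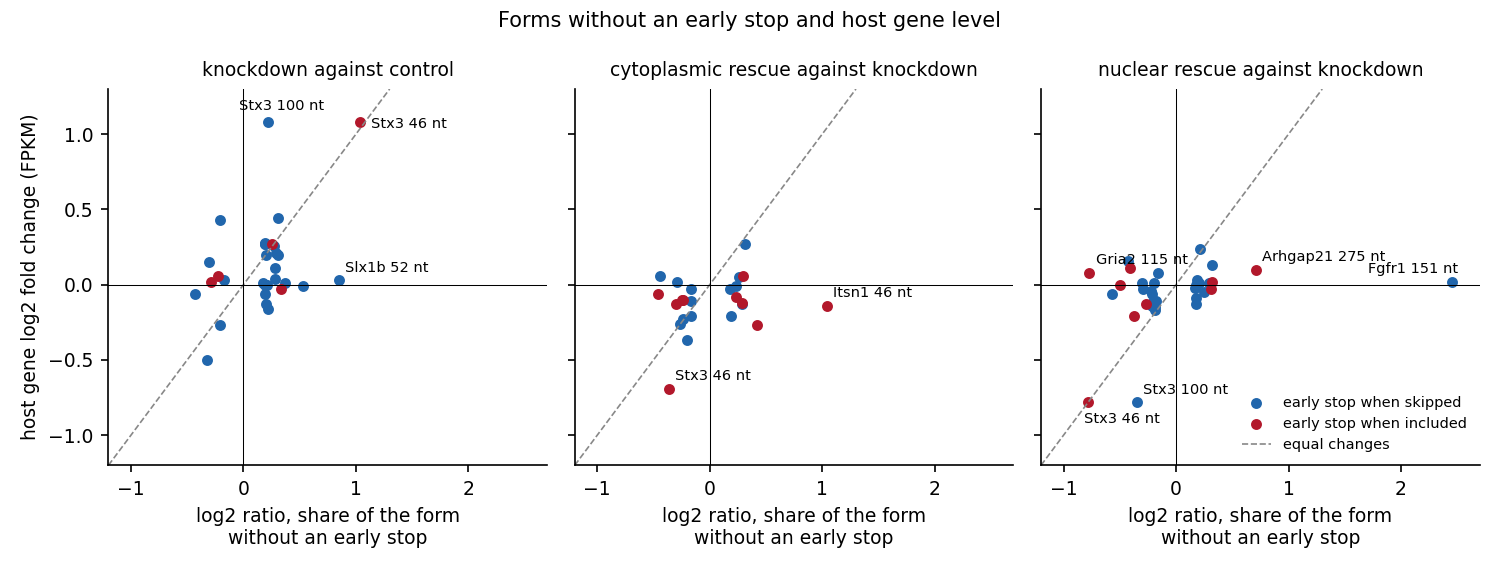
For exons with a predicted early stop, the log2 ratio of the share of the form without that stop (horizontal axis) and the host gene's log2 fold change of FPKM (vertical axis) in the 3 comparisons, with a dashed line of equal changes. The 46-nt Stx3 exon lies on or near the line in the knockdown (1.04 and 1.08) and in the nuclear rescue (-0.78 and -0.78), and most other points lie near 0 on the vertical axis.

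Counted by direction, the form with the early stop gained in 10 exons in the knockdown and lost in 25. The median host log2 fold change was 0.03 for those that gained it (8 with a host value) and 0.07 for those that lost it (24). Without Stx3 the latter was also 0.03. In the cytoplasmic rescue, with 13 exons each way, the medians were -0.11 and -0.08. In the nuclear rescue, with 22 and 16 exons, they were -0.06 and 0.01. Without Stx3 the medians of the exons that gained it were -0.10 in the cytoplasmic and -0.05 in the nuclear rescue.

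Other exons that end the frame when included had hosts that were not called. In D16H22S680E, named Tango2 in GENCODE and linked to Golgi organisation, inclusion of the 44-nt exon was 0.075 in knockdown and 0.344 in the nuclear rescue, with an early stop after 24 codons in place of 276. The gene measured 16.6 FPKM in both. In Trank1, which encodes a protein with ankyrin repeats, the 86-nt exon had 0.07 and 0.3 in these groups, and the gene 20.6 and 22.2 FPKM. In Mtfr1, a regulator of mitochondrial fission, the 37-nt exon had 0.413 in knockdown and 0.217 in the cytoplasmic rescue, and the gene 3.49 and 2.9 FPKM. Snapc4 encodes a subunit of a complex needed for transcription of small nuclear RNA genes. Its 119-nt exon had 0.409 in control, 0.517 in knockdown, 0.404 in the cytoplasmic and 0.396 in the nuclear rescue. Its host stayed between 4.24 and 4.47 FPKM, and its junction share moved by 0.0344 in the knockdown.

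Exons that change the C-terminus showed some of the largest differences in inclusion. Camkk2 encodes a kinase that activates other kinases in response to calcium. Its 43-nt exon had 0.686 in control, 0.326 in knockdown, 0.657 in the cytoplasmic and 0.813 in the nuclear rescue, so the knockdown was again lowest and the nuclear rescue was above the control. Included, the last 71 codons of 588 followed the exon's start, and skipped, the last 24 of 541. In junction reads the knockdown had 104 and 113 inclusion and 274 skipping reads, and the nuclear rescue 375, 344 and 121. Matched by its mm9 position, since the tables list it under different symbols, the gene measured 15.5, 20.6, 26.5 and 21.9 FPKM in the 4 groups, and it was not called in the knockdown (log2 fold change 0.42, implied standard error 0.139, Cufflinks q = 0.158).

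Camta1 encodes a calmodulin-binding transcription activator. Inclusion of its 31-nt exon was 0.047 in knockdown, 0.203 in the cytoplasmic and 0.453 in the nuclear rescue, with 9 and 1 inclusion against 160 skipping reads in the knockdown. Either form had 1682 codons, of which the last 21 differ. The gene measured 8.29 FPKM in control, 5.47 in knockdown, 8.04 in the cytoplasmic and 6.99 in the nuclear rescue, and it was called lower in the knockdown (log2 fold change -0.60, implied standard error 0.152, Cufflinks q = 0.0116), a table that does not list the exon. In the rescues it was not called (Cufflinks q = 0.0674 and 0.664).

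Rbfox2 encodes the family member that the siRNA did not target. Its 40-nt exon, near the end of the coding region, had 0.782 in knockdown and 0.573 in the nuclear rescue, and neither form had an early stop (449 codons included, 439 skipped). GENCODE has a 43-nt exon in its place in other transcripts. The gene measured 35.4 FPKM in control, 42.1 in knockdown, 33.2 in the cytoplasmic and 17.7 in the nuclear rescue, so the nuclear rescue was the lowest. Its fall in the nuclear rescue was called (log2 fold change -1.25, implied standard error 0.176, Cufflinks q = 1.72e-09), and the cytoplasmic value was not (-0.35, Cufflinks q = 0.765). The difference between the rescues was not tested.

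Several further members had no early stop in either form or, in Kcnma1, a form without a stop codon. The 149-nt exon of Synj2, an inositol phosphatase of membrane traffic, had 0.844 in control, 0.719 in knockdown and 0.875 in the cytoplasmic rescue. The 29-nt exon of Kcnma1, the gene of the large-conductance potassium channel, had 0.089 in knockdown and 0.299 in the nuclear rescue, and for its included form no stop codon was found. In Kiss1r, a peptide receptor gene, a 233-nt exon had 0.696 in control and 0.496 in knockdown. In Eps15l1, an endocytic adaptor gene, a 206-nt exon had 0.699, 0.876 and 0.755 in control, knockdown and nuclear rescue. None of these 4 hosts was called in a comparison that lists its exon.

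Where skipping gave the early stop, the 80-nt exon of Dlgap4, a postsynaptic scaffold gene, had 0.906 in control, 0.73 in knockdown, 0.89 in the cytoplasmic and 0.894 in the nuclear rescue, with 7.02 to 7.88 FPKM over the groups. Only 4 to 16 reads per group crossed its skipping junction. The 182-nt exon of the transcription factor gene Rfx3 had 0.931 in knockdown and 0.776 in the cytoplasmic rescue, with 2 and 10 skipping reads. The 26-nt exon of Eml4, a microtubule-binding protein gene, had 0.724 in knockdown, 0.866 in the cytoplasmic and 0.489 in the nuclear rescue. Its skipping junction held 6, 1 and 5 reads, so this contrast between the rescues rests on few reads. A 62-nt exon of Bhlhb9, named after its values were seen, also differed between the rescues, with 0.674, 0.798 and 0.551.

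Exons of the 5′ end and without a complete coding transcript included several of the larger changes. The 83-nt exon of Casp8ap2, which encodes a factor of histone mRNA processing, holds the start codon and had 0.843 in control, 0.585 in knockdown and 0.706 in the nuclear rescue. Its gene measured 5.44, 5.41 and 5.56 FPKM. The 178-nt exon of Golgb1, the gene of a large Golgi protein, lies in the 5′ UTR and had 0.462, 0.651 and 0.496. The 64-nt exon of Prrg2, also in the 5′ UTR, had 0.999 in knockdown and 0.814 in the cytoplasmic rescue. The 286-nt exon of Elk4, an ETS transcription factor gene, had 0.912, 0.676 and 0.874 in control, knockdown and nuclear rescue. The 110-nt exon listed under Gapdhs is part of Arhgap33 in GENCODE and had 0.708 in control, 0.812 in knockdown, 0.673 in the cytoplasmic and 0.71 in the nuclear rescue. A 179-nt exon listed as AK162870, not matched, had 0.517, 0.717, 0.506 and 0.563.

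**Figure D5:**
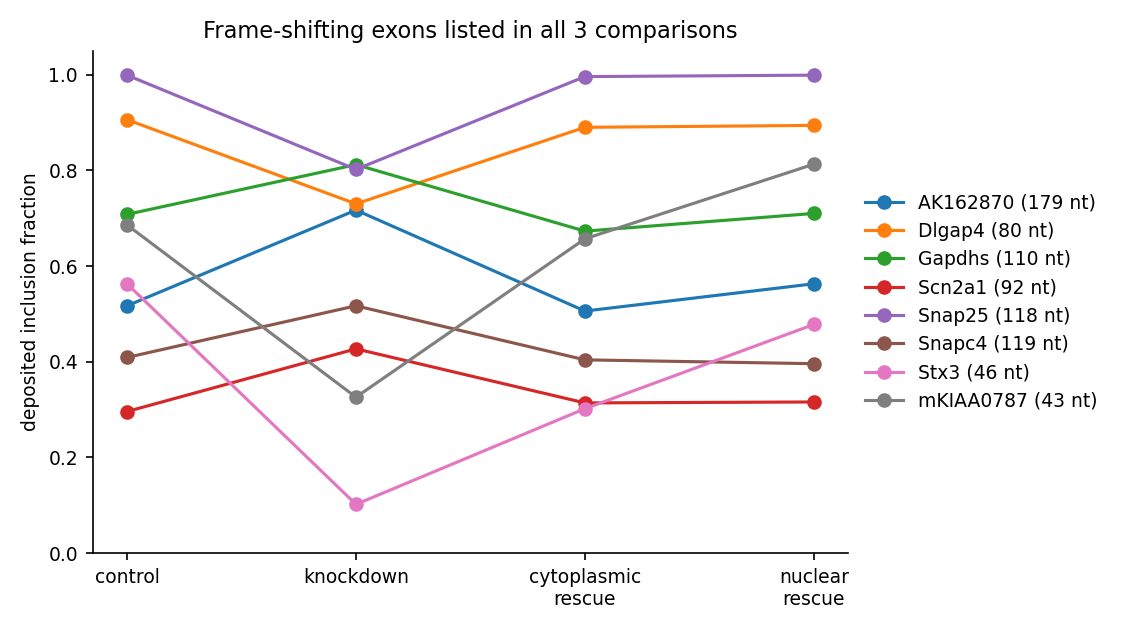
Deposited inclusion fraction (vertical axis) in the 4 groups for 8 of the 9 frame-shifting exons listed in all 3 comparisons, 1 value per group without a replicate error. The 9th, in Gria2, is left out because its neighbouring exons differ between the tables. Stx3 (0.102) and mKIAA0787 (0.326) are lowest in the knockdown.

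In 3 genes an exon of equal length can take the member's place. Snap25 encodes a SNARE protein of the nerve terminal with a pair of alternative exons. Its listed 118-nt exon had inclusion fractions of 0.999 in control, 0.802 in knockdown, 0.996 in the cytoplasmic and 0.999 in the nuclear rescue. In the knockdown 3096 and 2923 reads crossed the inclusion junctions and 7 the skipping junction, and the junction share moved by -0.0016 from control. The gene measured 456, 323, 389 and 352 FPKM and was not called in the knockdown (log2 fold change -0.50, Cufflinks q = 0.383). The skipping junction thus held at most 7 reads in any group.

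Gria2 encodes a subunit of AMPA-type glutamate receptors whose alternative exons are known as flip and flop. The first exon shown had 0.567 in control, 0.825 in knockdown and 0.712 in the cytoplasmic rescue next to the second exon, while its junction share moved by -0.0205 in the knockdown. In the nuclear rescue table, between other neighbours, it had 0.294 in knockdown and 0.142 in the rescue. The second exon had 0.522 and 0.72 there, its junction share moved by 0.187, and its inclusion beside the first gave the predicted early stop. The gene measured 225, 200, 213 and 211 FPKM and was not called in any comparison. The 92-nt exon of Scn2a1, a sodium channel gene, had 0.296, 0.427, 0.314 and 0.316 in the 4 groups, with at most 7 skipping reads. Its equal-length partner was identical at 72 of 92 bases (78.3%). In all, GENCODE has an exon that can take the place of 19 of the 216 members.

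No gene of the decay pathway itself was called. Of 21 measured factors of NMD and of the exon junction complex, none passed the authors' q in any comparison, and none had an unadjusted Cufflinks p under 0.05. Their median log2 fold change was 0.00 in the knockdown, -0.07 in the cytoplasmic and 0.01 in the nuclear rescue, beside 0.02, -0.06 and -0.02 for all genes. Of 14 measured transcripts known to be lowered by NMD, such as Atf4 and Gadd45b, none was called. At an unadjusted Cufflinks p under 0.05 there were 4, 2 and 1 of the 14, where all genes had 10.9%, 5.33% and 1.05%. In the knockdown these were Atf4 (log2 fold change 0.44) and Chac1 (0.49), higher, and Gadd45b (-0.40) and Gadd45g (-0.34), lower. Among 41 splicing regulators measured in the knockdown, known to carry such exons, only Rbfox1 and Rbfox3, the siRNA targets, were called there, both lower. Rbfox1 was called higher in both rescues and Rbfox2 lower in the nuclear one. In this list Mbnl1, Ptbp1 and Rbfox2 held members. The 73-nt exon of Ptbp1, a splicing repressor, had 0.831 in control and 0.945 in knockdown, and skipping it gave a stop after 25 codons. Its gene measured 7.15 and 8.71 FPKM (log2 fold change 0.28, implied standard error 0.239, Cufflinks q = 1.0). The 49-nt exon of Mbnl1, another splicing factor, had 0.757 and 0.876, while its junction share moved by 0.0034, and the gene had 19.8 FPKM in both groups.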

How the data were processed

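RNA was depleted of ribosomal RNA and sequenced as unstranded paired-end reads of 50 nt, per the labels' protocols. The submitters' processing notes name mm9, CASAVA and Cufflinks, without versions. For each gene the authors deposited 1 FPKM value per group, the log2 fold change, its statistic, and a p-value with the q-value. The deposited splicing tables hold the inclusion fraction, the splice change score (the difference of the fractions) with its p-value, and read counts on each junction. They list called exons with an absolute score of at least 0.1, and 36 value columns were not used here. Depth per sample is unknown.

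The members, gene lists and tests were chosen with earlier results of these data known, and the comparison of the form without an early stop was added after seeing the data. Exon sizes are end minus start, and printed starts are counted from 1. Host genes were joined by symbol, and 25 exons lacked a value. The implied standard error is the deposited log2 fold change divided by the test statistic. GENCODE M21 exons were matched by chromosome, strand, exon 2 size and both intron lengths, without converting coordinates, and 36 matched exons carry another gene name than in the tables. Reading-frame prediction was tested on simulated data (466 of 466 cases read as built). Python 3.11.15, pandas 2.3.3, numpy 2.4.6 and scipy 1.17.1 were used. Named exons were, per comparison, the 10 with the largest absolute score, those with a called host, those in all 3 tables, those in a listed gene, and the 3 smallest and the largest; exons with a predicted early stop and a large ratio, and Bhlhb9, were named after their values were seen. An exon that the naming rule selects is not reported here. Alternatives covered the score and q thresholds, junction reads, low FPKM, the join and single genes.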

Additional observations from a re-analysis of the deposited data

How the results depend on the processing

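No paired analysis was possible because the tables hold 1 value per group, with the libraries already combined, so the replicate block and leaving out each replicate could not be run. The 216 exons would be 448 if sizes counted both ends, which the tables' own size column does not do, and 16 had an absolute score of at least 0.2. At that score 2, 2 and 7 exons were more included in the knockdown, the cytoplasmic and the nuclear rescue, in place of 46, 36 and 43. The relation of inclusion and host level had rho = -0.70 over 5 exons in the knockdown and 0.30 over 10 in the nuclear rescue at that score, and it was not computed for the cytoplasmic rescue, where fewer than 4 exons remained. Pearson's r in the knockdown was -0.11 in place of a rho of 0.02. The counts of called hosts stayed within 1.5 times under every alternative run. Of 55 named exons and comparisons, the difference in junction share, an alternative chosen after seeing the data, was at least 0.1 in the deposited direction in 28, smaller in 24 and opposite in 3: Gria2 in the knockdown (-0.0205) and the cytoplasmic rescue (0.0361), and Scn2a1 in the nuclear rescue (0.0186). The cause was not tested. Junction reads limit the exons with few skipping reads, such as those of Eml4 and Dlgap4.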
